A study of Mus musculus with 32 samples.

Results

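Immune checkpoint genes encode surface proteins that restrain or set the strength of T cell responses, and the 10 examined here were the ligand genes Cd274, Pdcd1lg2, Cd80 and Cd86, the receptor genes Pdcd1, Ctla4, Lag3, Havcr2 and Tigit, and Vsir, whose product VISTA has been described both as a ligand and as a receptor. They were chosen by symbol, as the rows of the count and TPM tables whose Ensembl identifiers carry those names in the GENCODE mouse annotation, and all 10 were found among the 50600 genes in the tables. The RNA came from 32 primary mouse melanomas, 8 in each of 4 groups formed by E-cadherin status and sex, and polyadenylated transcripts were sequenced. All the mice carried the Tyr::NrasQ61K transgene, in which a tyrosinase promoter drives the NRAS oncogene in melanocytes, had a single working copy of Cdkn2a, a tumour suppressor gene, and had both copies of Cdh1, the E-cadherin gene, in a form that Cre recombinase can inactivate (Cdh1F/F). The groups named Ecad had no further transgene (°/°). The ΔEcad groups carried an additional melanocyte transgene, which the methods name as the Cre line Tyr::CreA and the sample labels write as Tyr::NRAS/°. Since this Cre is driven by a melanocyte promoter, immune and skin cells of a ΔEcad tumour should have kept their E-cadherin gene, which was not measured by cell type. The mouse lines had been crossed onto C57BL/6J, the tumours grew in place in animals with their own immune system, and no drug had been given according to the labels. Ages were not given in the labels used here, and nothing in them says whether any 2 tumours came from the same mouse, so the p-values below measure the spread between tumours.

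In this system a ligand on a tumour cell, macrophage or dendritic cell binds a receptor on a T cell. PD-L1, the product of Cd274, and PD-L2, the product of Pdcd1lg2, bind PD-1, the product of Pdcd1, and dampen T cell signalling. CD80 and CD86 bind CD28, which supports T cell activation, and CTLA-4, which binds them more tightly and opposes it. LAG-3, TIM-3 (the product of Havcr2) and TIGIT are further inhibitory receptors of T cells and natural killer cells, and TIM-3 is also carried by dendritic cells and macrophages. Cd274 is induced by interferon-γ, and antibodies to PD-1, CTLA-4 and LAG-3 are used to treat melanoma.

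The deposited total counts ranged from 24036333 to 63923086 per tumour. Melanocytic markers were abundant in most tumours, with a median of 11257 TPM for Dct, but ΔEcad male 7 had 31.47 TPM summed over 7 melanocytic markers, where each of the other 31 tumours had at least 5773. ΔEcad male 2 held 0 counts of Y-linked genes against its label and is written below as the tumour labelled male. It also had 6.41 TPM of Xist, the X inactivation gene. The other tumours labelled male had at most 0.2 TPM of Xist and those labelled female at least 8.55. It was counted as a male in the comparisons. Cdh1 ranged from 0.17 to 143 TPM in the ΔEcad females and from 2.16 to 151 TPM in the Ecad females, so its level did not separate those groups. ΔEcad female 3 had 16.16 TPM summed over 10 macrophage markers; Adgre1, C1qa, C1qb, C1qc and Fcgr1 were each at 0 counts in 1 of the 32 tumours. In bulk tumour RNA, fewer cells of a type and less RNA of a gene per cell cannot be told apart. Several results that rest on these 3 tumours are also given without them or without 1 of them.

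The levels of the 10 genes spanned almost 2 orders of magnitude when compared as TPM, the transcript abundance scaled to transcript length and library size. Vsir had the highest median over the 32 tumours, 20.8 TPM, with a range from 0.77 to 54.88 TPM. Cd274 followed with a median of 11.4 TPM and the widest range in absolute terms, from 0.90 to 209.7 TPM. Havcr2, Lag3, Cd80 and Cd86 had medians of 3.79, 2.75, 1.855 and 1.845 TPM. Tigit, Pdcd1, Ctla4 and Pdcd1lg2 lay lowest, with medians of 0.96, 0.65, 0.345 and 0.265 TPM. Vsir, Cd274, Havcr2 and Lag3 held places 1, 2, 3 and 4 by group median in each of the 4 groups, whereas the order of Cd80 and Cd86, and of Ctla4 and Pdcd1lg2, changed between groups. Neighbours in this order were compared tumour by tumour with a two-sided paired permutation test of log2(TPM + 0.1), adjusted over 9 neighbouring pairs. Cd274 exceeded Havcr2 in 27 of 32 tumours (p = 2e-05, adjusted p = 0.00018), and the steps from Havcr2 to Lag3, from Cd86 to Tigit and from Pdcd1 to Ctla4 also passed, each with an adjusted permutation p of 0.0204. The other 5 steps did not pass. Vsir exceeded Cd274 in 20 tumours and lay below it in 12 (mean log2 difference 0.28, SD 1.58), and Cd80 exceeded Cd86 in 20 and lay below it in 12 (0.40, SD 1.22).

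**Figure D1:**
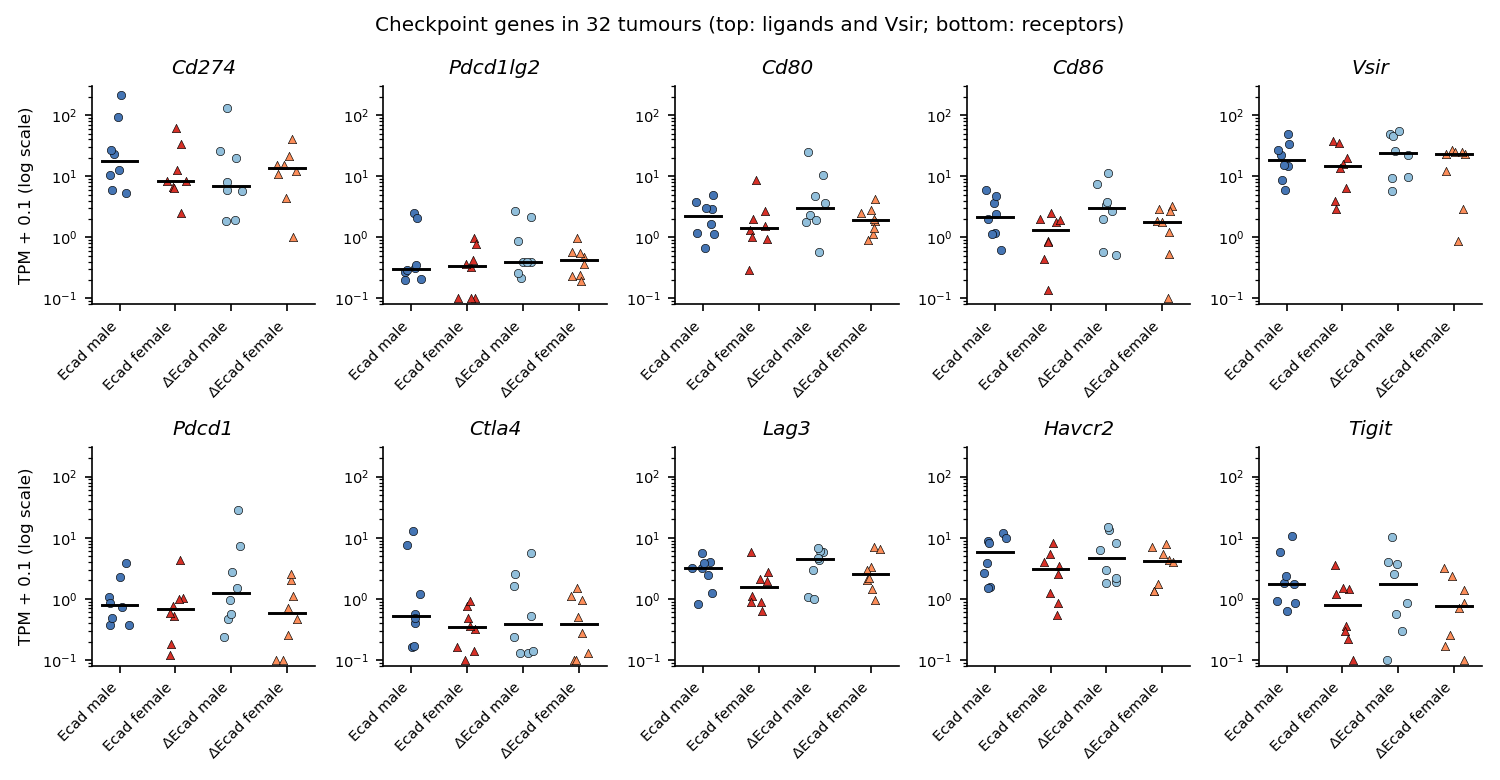
TPM + 0.1 on a log axis for the 10 genes in each of the 32 tumours, by group, with a bar at the group median of 8 tumours (circles, males; triangles, females). The groups overlap in all 10 panels, Vsir and Cd274 lie highest, and single male tumours stand far above their group for Cd274, Pdcd1, Ctla4 and Cd80.

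Depth limited the lowest genes. Pdcd1lg2 and Ctla4 each had 3 counts or fewer in 11 of 32 tumours, Tigit in 7, Pdcd1 in 5 and Cd86 in 2, while the other 5 genes had more than 3 counts in every tumour. Of the 320 values, 12 were 0 counts, and a count of 0 allows up to 3 counts, between 0.0469 and 0.105 CPM (counts scaled to library size) at the depth of those tumours, which covers counting error only. The tumours with a 0 for more than 1 of the genes were Ecad female 8, ΔEcad female 3 and ΔEcad female 4.

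Cd274 encodes PD-L1, lies on chromosome 19 from 29367455 to 29388095 on the plus strand (GRCm38), and stands 22823 bases before Pdcd1lg2, its closest relative in sequence and function. The products of these neighbouring ligand genes both bind PD-1, and the genes differed 43.2-fold in median level. The 250 bases before the RefSeq start of each are shown (GRCm38.p6, written 5′ to 3′ along the gene, CG dinucleotides in capitals). Whether these bases bear on the levels was not tested.
Cd274 (chr19:29367188-29367437, plus strand): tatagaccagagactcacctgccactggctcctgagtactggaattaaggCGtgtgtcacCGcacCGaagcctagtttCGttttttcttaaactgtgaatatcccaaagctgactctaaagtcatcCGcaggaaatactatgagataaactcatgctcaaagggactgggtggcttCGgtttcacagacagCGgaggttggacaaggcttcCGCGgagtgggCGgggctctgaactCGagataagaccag
Pdcd1lg2 (chr19:29410669-29410918, plus strand): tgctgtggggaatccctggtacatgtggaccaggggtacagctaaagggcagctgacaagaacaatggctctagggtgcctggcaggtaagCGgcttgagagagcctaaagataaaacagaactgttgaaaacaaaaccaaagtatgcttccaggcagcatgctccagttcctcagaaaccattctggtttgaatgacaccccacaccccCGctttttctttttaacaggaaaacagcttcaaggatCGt
The Cd274 window held 11 CG dinucleotides and the Pdcd1lg2 window 3, against a median of 6 in 32851 RefSeq windows of this length, and 35.6% of those windows held at least as many as Cd274. Windows were at hand for 8 of the 10 genes, not for Lag3 and Cd86, and those of Vsir and Ctla4 held 9 and 7 CG dinucleotides, and those of Tigit, Cd80, Pdcd1 and Havcr2 5, 3, 3 and 2.

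Cd274 was found in every tumour, with 46 to 9700 counts. In Ecad males it ranged from 5.23 to 209.7 TPM with a median of 17.7, and in ΔEcad males from 1.76 to 132.0 with a median of 6.93. Ecad females ranged from 2.37 to 60.7 TPM with a median of 8.38, and ΔEcad females from 0.90 to 41.1 with a median of 13.8. The ranges overlapped in part, with Ecad male 4 and Ecad male 6 above all Ecad females, and a single tumour made up 54.1% of the Ecad male sum (Ecad male 4) and 65.7% of the ΔEcad male sum (ΔEcad male 4). The log2 fold change between ΔEcad and Ecad was -0.18 in females (SE 0.82, 95% interval from -1.84 to 1.49, adjusted p = 0.956) and -1.11 in males (SE 0.83, interval from -2.80 to 0.57, adjusted p = 0.637; edgeR quasi-likelihood test with Benjamini-Hochberg adjustment over 17717 genes). Between females and males it was -1.51 in Ecad (SE 0.83, adjusted p = 0.379) and -0.58 in ΔEcad (SE 0.82, adjusted p = 0.876). Without Ecad male 4 the male genotype difference of Cd274 was 0.02 on the log2 scale, and without ΔEcad male 4 it was -2.26. Without the same tumours the sex difference of Cd274 was -0.36 in Ecad (without Ecad male 4) and 0.56 in ΔEcad (without ΔEcad male 4). The female genotype difference also turned, to 0.32 without Ecad female 4. Cd274 shares 511 exonic bases with a gene on the opposite strand, AC119228.1, which has no row in the tables, and since the counting is not stated to have used strand, reads of the 2 cannot be told apart.

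Pdcd1lg2, the PD-L2 gene, was the lowest of the 10 with 0 to 51 counts. Its medians were 0.205 TPM (Ecad males), 0.245 (Ecad females), 0.300 (ΔEcad males) and 0.325 (ΔEcad females). The 4 highest tumours were ΔEcad male 4 (2.64 TPM), Ecad male 4 (2.43), ΔEcad male 7 (2.08) and Ecad male 6 (1.98), and they were the only tumours with at least 1 TPM. Its log2 fold changes between genotypes were 0.27 in females (SE 0.86) and 0.30 in males (SE 0.84), both smaller than their standard errors. An unrelated transcript on the opposite strand, A930007I19Rik, lies over Pdcd1lg2 without shared exonic bases and had 1320 counts over all tumours against 342 for Pdcd1lg2, a further limit on so low a gene.

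Pdcd1, the PD-1 gene, lies on chromosome 1 from 94038305 to 94052553 on the minus strand and was the member with the largest spread for its level. Ecad males ranged from 0.28 to 3.81 TPM with a median of 0.695, and ΔEcad males from 0.14 to 28.0 TPM with a median of 1.135. Ecad females ranged from 0.02 to 4.30 TPM (median 0.575) and ΔEcad females from 0 to 2.48 TPM (median 0.495). ΔEcad male 4, at 28.0 TPM and 498 counts, held 68.1% of its group's sum, followed by ΔEcad male 8 at 7.27 TPM. The ΔEcad male mean was 5.14 TPM with ΔEcad male 4 and 1.88 TPM without it. In males, ΔEcad against Ecad gave a log2 fold change of 2.10 (SE 1.02, 95% interval from 0.03 to 4.17, adjusted p = 0.484), which fell to 1.06 without ΔEcad male 4. In ΔEcad, females against males gave -2.73 (SE 1.04, 95% interval from -4.86 to -0.61, adjusted p = 0.503), and -1.70 without that tumour. Neither difference passed the adjusted threshold, and the female genotype difference was -0.38 (SE 0.99), which turned to 0.71 without Ecad female 7.

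The PD-1 ligands lay on either side of their receptor. Cd274 exceeded Pdcd1 in 32 of 32 tumours, with a ratio of medians of 17.6, and exceeded Pdcd1lg2 in 32 of 32 with a ratio of medians of 43.2. Pdcd1lg2 exceeded Pdcd1 in 7 tumours, 4 of them ΔEcad females. Counts of Pdcd1lg2 against Pdcd1 were low in those 4. They were 20 against 10 in ΔEcad female 2 and 8 against 4 in ΔEcad female 7. In ΔEcad female 3 and ΔEcad female 4 they were 2 against 0 and 3 against 0, within the counting limit given for a 0. Across the tumours Cd274 and Pdcd1 rose together in log2 CPM: Pearson's r was 0.576 (permutation p = 0.00065) and Spearman's rho 0.451 (p = 0.0107). The Pearson correlation was positive within each group, from 0.460 in Ecad females to 0.770 in ΔEcad females, and it fell to 0.461 once Ecad male 4 and ΔEcad female 4, farthest from the Cd274 median, were left out (adjusted p = 0.00195 over 12 pairs with all tumours). Pdcd1lg2 and Pdcd1 had r = 0.670 (permutation p = 6e-05, adjusted p = 0.00024) and rho = 0.618, with r from 0.524 to 0.837 within the groups and 0.581 without the 2 farthest tumours.

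Cd80 and Cd86, the CD28 and CTLA-4 ligands, lie on chromosome 16 with 1.79 megabases between them, and had nearly equal medians. Cd80 had medians of 2.165 TPM for Ecad males, 1.32 for Ecad females, 2.90 for ΔEcad males and 1.835 for ΔEcad females. Its highest value, 25.04 TPM, was in ΔEcad male 7, the tumour poor in melanocytic markers, and the next were 10.5 TPM in ΔEcad male 4 and 8.58 TPM in Ecad female 4. The ranges overlapped: Ecad males from 0.58 to 4.78 TPM and ΔEcad males from 0.47 to 25.04. In males, ΔEcad against Ecad gave a Cd80 log2 fold change of 1.44 (SE 0.60, 95% interval from 0.22 to 2.65, adjusted p = 0.443), and 0.76 without ΔEcad male 7. In ΔEcad, females against males gave -1.68 (SE 0.60, 95% interval from -2.90 to -0.46, adjusted p = 0.484), and -1.002 without ΔEcad male 7. In females the genotype difference was -0.11 (SE 0.59), which turned to 0.56 without Ecad female 4, and the female minus the male genotype difference was -1.55 (SE 0.83, adjusted p = 0.331).

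Cd86 had medians of 2.09 and 2.955 TPM in Ecad and ΔEcad males, and 1.24 and 1.70 TPM in Ecad and ΔEcad females. It was highest in ΔEcad male 7 (11.02 TPM) and ΔEcad male 4 (7.38 TPM), and lowest in ΔEcad female 3 (0 counts) and Ecad female 8 (0.04 TPM, 2 counts). Its genotype differences were 0.50 in females (SE 0.70) and 0.57 in males (SE 0.69), and its sex differences -1.14 in Ecad (SE 0.70, adjusted p = 0.434) and -1.22 in ΔEcad (SE 0.70, adjusted p = 0.622), none past the threshold. Without ΔEcad male 7 the sex difference of Cd86 in ΔEcad was -0.86.

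Ctla4, the CTLA-4 gene, lies on chromosome 1 between Cd28, 113.6 kilobases before it, and Icos, 62.1 kilobases after it, both genes of activating receptors of the same family. Ecad males ranged from 0.06 to 12.9 TPM with a median of 0.430, and Ecad females from 0 to 0.82 TPM with a median of 0.240. ΔEcad males ranged from 0.03 to 5.59 TPM (median 0.285) and ΔEcad females from 0 to 1.43 TPM (median 0.295). The 2 highest values were Ecad male 4 at 12.9 TPM (383 counts) and Ecad male 6 at 7.46 TPM, and all the medians lay within 0.2 TPM of each other. In Ecad, females against males gave a log2 fold change of -3.25 (SE 1.22, 95% interval from -5.75 to -0.76, adjusted p = 0.177), and -2.01 without Ecad male 4. This was the only member called by an alternative tool: DESeq2 gave -3.31 with an adjusted p of 0.041, in a comparison where DESeq2 called 5.77% of all genes. In ΔEcad the sex difference was -1.27 (SE 1.14, adjusted p = 0.774), and the difference between the 2 sex effects was not past the threshold (1.98, SE 1.61, adjusted p = 0.546).

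Cd80 exceeded Ctla4 in 30 of 32 tumours and Cd86 exceeded it in 29. Ecad male 4 and Ecad male 6, the tumours with the highest Ctla4, were the exceptions for both ligands, and in ΔEcad female 3 neither Cd86 nor Ctla4 had a count. Across tumours, Ctla4 followed Cd86 (r = 0.674, permutation p = 3e-05, adjusted p = 0.00018), with rho of 0.662, r from 0.582 to 0.788 within groups and 0.656 without the 2 farthest tumours. With Cd80 its r was 0.418 (permutation p = 0.0171, adjusted p = 0.0293), rho was 0.361 and did not pass (adjusted permutation p = 0.0721), and r ran from -0.060 in ΔEcad females to 0.632 in ΔEcad males and was 0.350 without the 2 farthest tumours. Cd28, the activating receptor for the same ligands, had a median of 0.395 TPM, near that of Ctla4, and had r of 0.512 with Cd86 (permutation p = 0.00239, adjusted p = 0.00574, rho 0.654). It had r of 0.466 with Cd80 (permutation p = 0.00743, adjusted p = 0.0149, rho 0.443), and without the 2 farthest tumours these were 0.683 and 0.384. Within groups they ran from 0.247 to 0.879 and from 0.260 to 0.902. The gap between the Cd86 and Cd80 correlations was not tested.

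**Figure D2:**
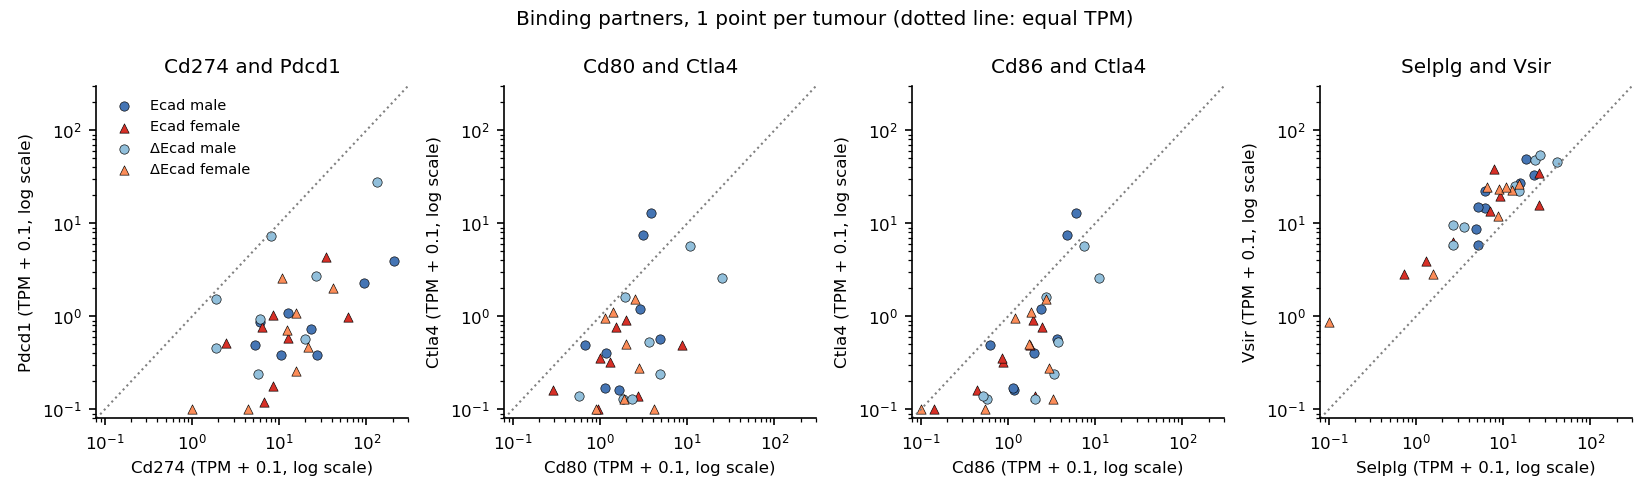
TPM + 0.1 on log axes for 4 ligand and receptor pairs, with 1 point per tumour and a dotted line where the 2 genes are equal. Cd274 lies above Pdcd1 in all 32 tumours, Ctla4 exceeds both of its ligands only in Ecad male 4 and Ecad male 6, and Vsir rises with Selplg.

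Havcr2, Lag3 and Tigit, the 3 further inhibitory receptor genes, differed in how evenly they were found. Havcr2 (TIM-3) was at 1 TPM or more in 30 of 32 tumours and Lag3 in 25, against 16 for Tigit, 10 for Pdcd1 and 8 for Ctla4. Lag3 had the tightest spread of the 10 genes, its highest tumour being 2.50 times its median, where the highest Pdcd1 was 43.1 times and the highest Ctla4 37.3 times the median. Havcr2 medians were 5.85 TPM for Ecad males, 2.925 for Ecad females, 4.515 for ΔEcad males and 4.06 for ΔEcad females. Its 5 highest tumours were males, with ΔEcad male 4 at 15.2 TPM and ΔEcad male 3 at 13.3. Lag3 medians were 3.13, 1.44, 4.37 and 2.475 TPM in the same order of groups, and Tigit medians 1.67, 0.685, 1.635 and 0.67. Tigit was highest in Ecad male 4 (10.4 TPM) and ΔEcad male 4 (10.3 TPM), and those were 43.7% and 47.3% of their groups' sums. For Lag3, ΔEcad against Ecad gave log2 fold changes of 0.62 in females (SE 0.53, 95% interval from -0.46 to 1.71) and 0.74 in males (SE 0.53, interval from -0.34 to 1.83), neither past the threshold. Those of Havcr2 and Tigit were between -0.21 and 0.40.

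The ligands of these receptors were, except for Fgl1, far more abundant than the receptors by median. Pvr and Nectin2, which encode ligands of TIGIT, had medians of 19.3 and 24.3 TPM, and Pvr exceeded Tigit in 32 of 32 tumours. Lgals9 and Ceacam1, which encode proposed TIM-3 ligands, had medians of 93.0 and 26.2 TPM. Fgl1, which encodes a LAG-3 ligand, was low with a median of 0.520 TPM. No correlation of these 5 ligands with their receptors passed the adjusted threshold: r was -0.217 for Pvr and -0.018 for Nectin2 with Tigit, 0.189 for Lgals9 and 0.113 for Ceacam1 with Havcr2, and 0.361 for Fgl1 with Lag3 (permutation p = 0.043, adjusted p = 0.0645). The pair of Fgl1 and Lag3 passed with library size scaling (r = 0.381, adjusted permutation p = 0.048) and when any 1 of 6 single tumours was left out, at most r = 0.443 without ΔEcad male 5. Ceacam1 and Havcr2 had r = 0.8001 in Ecad males and between -0.214 and 0.345 in the other groups. Of the 12 ligand and receptor pairs examined, the 7 that passed were Cd274 and Pdcd1lg2 with Pdcd1, Cd80 and Cd86 with both Ctla4 and Cd28, and Selplg with Vsir. The pair of Cd80 and Ctla4 no longer passed without Ecad female 3, ΔEcad male 4 or ΔEcad male 7 (adjusted permutation p of 0.0508, 0.072 and 0.0732), nor did Cd80 and Cd28 without Ecad female 3 (0.101).

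Vsir, the VISTA gene, lies on chromosome 10 from 60346851 to 60372684 on the plus strand, over a part of Cdh23 on the opposite strand without shared exonic bases. Ecad males ranged from 5.75 to 49.5 TPM with a median of 18.6, Ecad females from 2.76 to 37.9 with a median of 14.5, ΔEcad males from 5.72 to 54.9 with a median of 23.7 and ΔEcad females from 0.77 to 26.6 with a median of 23.2. Males and females overlapped, and the lowest tumour was ΔEcad female 3. No Vsir difference passed the threshold, with log2 fold changes between -0.73 and 0.42 in the 4 pairwise comparisons (SE 0.55 to 0.56). The lowest of these, the sex difference in ΔEcad, was -0.546 without ΔEcad female 3. Selplg, which encodes PSGL-1, a VISTA partner carried by leukocytes, followed Vsir closely: r was 0.914 (permutation p = 1e-05, the smallest that 100000 permutations can give), adjusted p = 0.00012, rho was 0.878, and r was between 0.833 and 0.955 within the groups and 0.854 without the 2 farthest tumours.

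Comparing the groups across all 17717 tested genes, none of the 10 checkpoint genes was called by edgeR, a call being an adjusted p under 0.05 with a fold change of over 2 in either direction. For ΔEcad against Ecad, 1.2% of all genes were called in females and 0% in males, and for females against males 0.0508% in Ecad and 0.0395% in ΔEcad. The test of whether the genotype difference itself differed between the sexes called 0% of genes. At an unadjusted p under 0.05, 0 members stood out in the female genotype comparison (15.3% of all genes did), 2 in males (Pdcd1 and Cd80, against 10.2%), 1 between the sexes in Ecad (Ctla4, against 16%), 2 in ΔEcad (Pdcd1 and Cd80, against 8.81%) and 0 in the test of the difference (17.7%). For 10 genes these counts lie near the background shares. The ranges of the groups overlapped for all 40 combinations of gene and pairwise comparison. The share of all genes with such an overlap was not computed, so this is a description and not a result about the members. The intervals do not show the groups to be alike: that of Ctla4 in the female genotype comparison ran from -1.60 to 3.08.

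**Figure D3:**
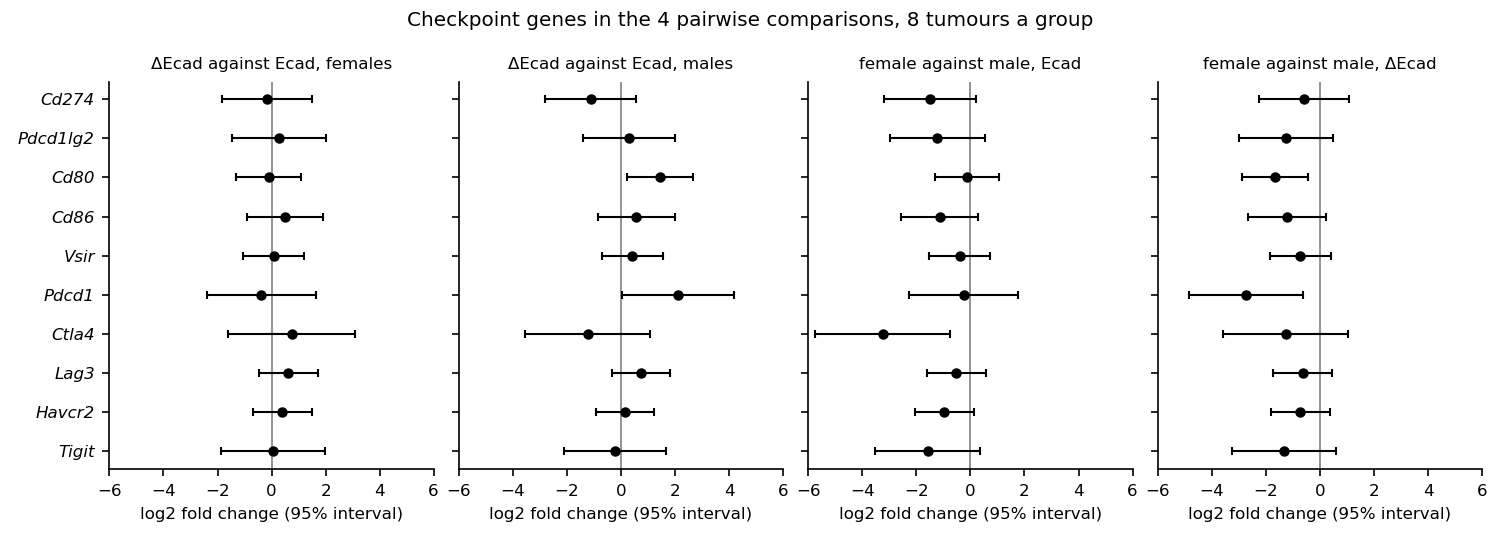
Log2 fold changes of the 10 genes with 95% intervals from the edgeR fit of all 32 tumours, for the 4 pairwise comparisons of 8 tumours each. All the points of the female against male panels lie left of 0, and the intervals of Ctla4 in Ecad and of Pdcd1 and Cd80 in ΔEcad do not reach 0.

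By sign, 7 of 10 members had log2 fold changes above 0 for ΔEcad against Ecad in each sex, with a median log2 fold change of 0.18 in females (48.4% of all genes were above 0) and 0.36 in males (59.1% above 0, median of all genes 0.11). All 10 had log2 fold changes below 0 for females against males in both genotypes, with medians of -1.06 in Ecad and -1.24 in ΔEcad, where 46.1% and 54.9% of all genes were below 0 and the medians over all genes were 0.05 and -0.06. Single tumours turned some of these signs: without Ecad male 4 the Ecad value was 0.44 for Pdcd1 and 0.12 for Cd80, and without ΔEcad male 4 the ΔEcad value of Cd274 was 0.56. Leaving out Ecad male 5, Ecad female 3 or Ecad female 8 also put Cd80 above 0 in Ecad. After these values were seen, the sexes were compared over both genotypes in the same fit. No member was called (0.0734% of all genes were, 0.0113% for the genotypes over both sexes). The 10 were again all below 0, as were 53.8% of all genes, and 7 of 10 had an unadjusted p under 0.05 against 6.85% of all genes, but none an adjusted p under 0.714. The 7 became 0 with the T cell and macrophage scores as covariates, where 3 of 10 members were above 0 (median -0.26). They became 2 with the replicate block (698 of all 17717 genes), 2 with log2(TPM + 1) (529 genes) and 2 with log2(TPM + 0.1) (595 genes). With limma voom with quality weights they became 4 (1041 genes). DESeq2 and edgeR without its robust option kept 7. RLE size factors, library size only, no filter and the keratinocyte covariate each kept 6. A stricter CPM filter left only 7 of the 10 members to test, and 4 of those had an unadjusted p under 0.05. In the main fit the members under 0.05 were Pdcd1lg2, Pdcd1, Ctla4, Havcr2, Tigit, Cd80 and Cd86, from -0.85 (SE 0.38) for Havcr2 to -2.26 (SE 0.83) for Ctla4. For the genotypes over both sexes 0 members reached an unadjusted p under 0.05, against 9.88% of all genes. The members are not independent of each other and the comparison was added because of their signs, so the count is a description.

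Most immune lists had the same sign, without a call. For females against males all 10 T cell markers had log2 fold changes below 0 in both genotypes, with medians of -0.84 in Ecad and -0.91 in ΔEcad, as were all 8 dendritic cell markers and 8 and 9 of the 10 macrophage markers. Summed over the 10 T cell markers, Ecad males ranged from 5.77 to 62.36 TPM, Ecad females from 0.59 to 51.22, ΔEcad males from 1.16 to 75.79 and ΔEcad females from 1.60 to 36.95. The 3 B cell markers tested went the other way in Ecad, all 3 above 0 (median 2.77), and were all below 0 in ΔEcad (median -0.74), and 4 of 5 neutrophil markers were above 0 in Ecad and 1 of 5 in ΔEcad. Summed macrophage markers had group medians of 1783, 675, 2060 and 1363 TPM in that order. With the T cell and macrophage scores as covariates, 7 of 10 members were above 0 for females against males in Ecad (median 0.11) and 2 of 10 in ΔEcad (median -0.41). Keratinocyte markers, also without a call, were for females against males all 8 below 0 in Ecad (median -4.67) and all 8 above 0 in ΔEcad (median 1.98), and for ΔEcad against Ecad in females all 8 above 0 (median 5.29). With a keratinocyte score as covariate, 2 of 10 members were above 0 for females against males in Ecad (median -0.81) and 0 of 10 in ΔEcad (median -1.11).

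Leaving out the tumour labelled male (ΔEcad male 2), ΔEcad male 7 and ΔEcad female 3 left all 10 members below 0 for females against males in both genotypes, with medians of -1.06 in Ecad and -0.89 in ΔEcad, and 4 members at an unadjusted p under 0.05 over both genotypes. With them left out, 7 members in females and 8 in males were above 0 for ΔEcad against Ecad, and 0 members were called in any comparison.

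Other genes of the checkpoint pathways were counted from a list of 33 binding partners and co-receptors, of which 28 passed the filter on low counts, and edgeR called none in any comparison. DESeq2 called 1 of the 28 partners for ΔEcad against Ecad in females, 2 for females against males in Ecad and 2 for the difference between the genotype effects. In the same comparisons it called 1281, 1023 and 1225 of all 17717 genes, so these counts are not read as a result about the partners. The partners that DESeq2 called are not named here. Vtcn1, Ido1, Cd40lg, Tnfsf4 and Cd70 were too low to be tested. Tnfrsf18, which encodes the activating receptor GITR, came nearest and is named after its values were seen, with log2 fold changes of 3.39 for ΔEcad against Ecad in females (adjusted p = 0.0562) and -3.50 for females against males in Ecad (adjusted p = 0.0985). Fgl1 was next at -3.40 for females against males in Ecad (adjusted p = 0.0869). Tnfrsf18 shares 414 exonic bases with Gm16008 on the opposite strand. By sign, 15 of the 28 partners were above 0 for ΔEcad against Ecad in females and 19 in males, and for females against males 11 were above 0 in Ecad and 5 in ΔEcad. Sirpa, whose product binds CD47 and which is also named after its level was seen, was the most abundant of the list with a median of 102.0 TPM.

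A few tumours held most of the high values. ΔEcad male 4 was among the 3 highest tumours for 8 of the 10 genes, Ecad male 4 for 6, ΔEcad male 7 for 5 and Ecad male 6 for 3. ΔEcad male 4 had the highest summed T cell markers (75.79 TPM) and Ecad male 4 the next (62.36 TPM), and Ecad male 4 and Ecad male 6 had the highest summed interferon-γ response genes (3808 and 1581 TPM). ΔEcad male 7 differed from them in kind: it led for Vsir, Cd80 and Cd86 and had the highest summed dendritic cell markers (67.96 TPM), but only 5.85 TPM of Cd274. At the other end, Ecad female 8 was among the 3 lowest tumours for 7 genes, Ecad female 3 for 6, ΔEcad female 4 for 5 and ΔEcad female 3 for 4. Each of these 4 had summed T cell markers of at most 2.25 TPM.

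ΔEcad female 3 was uneven across the set. It had 0 counts of Pdcd1, Ctla4 and Cd86 and the lowest Vsir of all tumours, 0.77 TPM, yet the highest Cd80 of its group, 4.09 TPM (99 counts), and Cd274 at 4.23 TPM (218 counts). Its summed macrophage markers were the lowest of the 32 tumours at 16.16 TPM, its endothelial markers summed to 0.77 TPM and its natural killer and cytotoxic markers to 0 TPM, while its fibroblast markers were the highest at 9166 TPM. Ecad female 4 also had high Cd80 (8.58 TPM) and Cd274 (60.7 TPM) beside summed T cell markers of 2.73 TPM, and it had the highest summed neutrophil markers, 9227 TPM.

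The 10 genes rose and fell together across the tumours. All 45 pairs had a positive Pearson correlation of log2 CPM, with a median of 0.589, and these are given as descriptions without a test since the genes share libraries. The closest pair was Vsir and Cd86 (0.910), followed by Pdcd1lg2 and Ctla4 (0.819) and Havcr2 and Cd86 (0.782). The 3 lowest values each involved Cd80 or Cd274, with 0.220 for Tigit and Cd80, 0.265 for Cd274 and Cd80 and 0.326 for Cd274 and Lag3. Cd80 and Cd86, although they bind the same receptors, had 0.495.

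**Figure D4:**
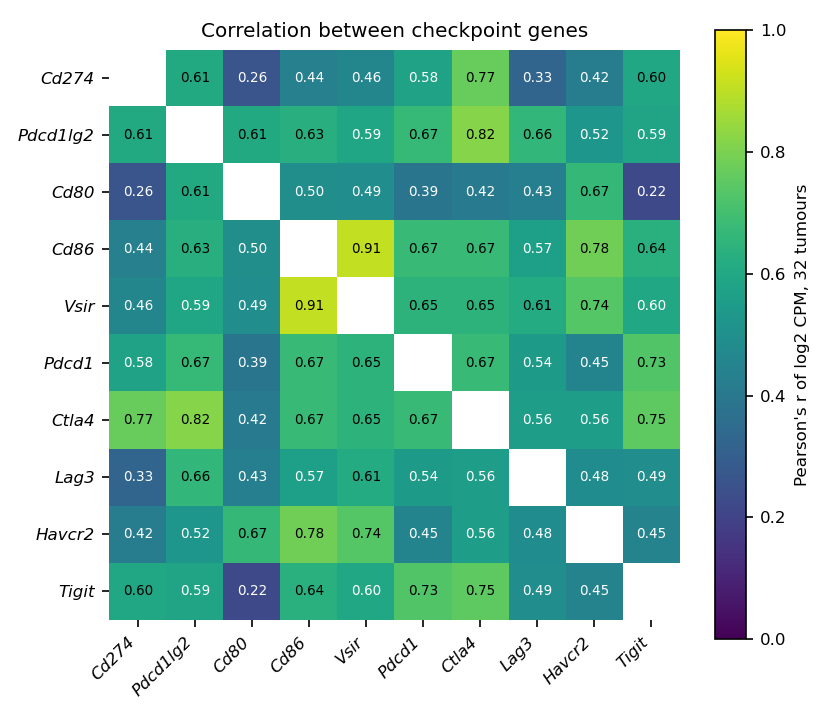
Pearson's r between each pair of the 10 genes in log2 CPM over 32 tumours, on a scale from 0 to 1. All 45 pairs are positive, Vsir and Cd86 are the closest at 0.91, and the Cd80 and Cd274 rows hold the lowest values.

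The correlation of each gene with 4 marker scores, each the mean log2 CPM of its list, was examined over all 32 tumours. By Pearson's r, 31 of 40 relations passed an adjusted permutation p of 0.05. All 10 genes passed with the T cell score and with the interferon-γ response score, 9 with the macrophage score (the exception being Cd80), and 2, Lag3 and Cd80, with the melanocytic score, in the negative direction. Spearman's rho with the melanocytic score passed for Lag3 and Cd80 (-0.461 and -0.485, adjusted permutation p = 0.00947 and 0.00645). It also passed for Havcr2, Vsir and Cd86 (-0.532, -0.486 and -0.546, adjusted permutation p = 0.00264, 0.00645 and 0.00212). Without the 3 tumours that stood apart Havcr2, Vsir and Cd86 also passed by Pearson's r (-0.516, -0.480 and -0.528, adjusted permutation p = 0.00573, 0.00942 and 0.00675). Lag3 no longer passed by Pearson's r with values centred on group means (adjusted permutation p = 0.0869). Cd80 lost its T cell relation with centred values (0.0575) and without Ecad female 3 (0.0742) or ΔEcad male 4 (0.054), and its interferon-γ relation without Ecad female 3 (0.0731). Ctla4, Pdcd1 and Tigit had r of 0.821, 0.813 and 0.792 with the T cell score, each with a permutation p of 1e-05 (adjusted 3.6e-05), and stayed at 0.788, 0.740 and 0.742 without the 2 farthest tumours. Spearman's rho was 0.835, 0.678 and 0.745. Within the 4 groups r lay between 0.822 and 0.917 for Ctla4, 0.666 and 0.898 for Pdcd1, and 0.655 and 0.902 for Tigit. These 3 receptor genes were not set apart by the T cell score. Vsir had the highest r of the 10 genes with it, 0.830 (rho 0.791), and Cd86 had 0.806 (rho 0.814). Both had a permutation p of 1e-05 (adjusted 3.6e-05). The T cell list holds none of the 10 genes.

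Vsir and Cd86 followed the macrophage score most closely, with r of 0.915 and 0.878 (permutation p = 1e-05 for both, adjusted 3.6e-05), rho of 0.891 and 0.795, and 0.887 and 0.815 without the 2 farthest tumours, ΔEcad female 3 and Ecad female 6. Within the groups r was between 0.879 and 0.943 for Vsir and between 0.651 and 0.950 for Cd86. Cd80 did not pass with the same score: r was 0.280 (permutation p = 0.12, adjusted p = 0.129) while rho was 0.489 (permutation p = 0.00482, adjusted p = 0.00643). Its r was 0.769 in Ecad males and 0.869 in ΔEcad males, but 0.221 in Ecad females and -0.535 in ΔEcad females, where ΔEcad female 3 combined the lowest macrophage score with the highest Cd80. Without the 3 tumours that stood apart the Cd80 correlation was 0.510 (adjusted permutation p = 0.00587). Its negative correlation with the melanocytic score, r = -0.568 (permutation p = 0.00157), was -0.297 without those 3 tumours and no longer passed (adjusted p = 0.134), so it rested in part on ΔEcad male 7. Spearman's rho over all 32 tumours was -0.485 (adjusted permutation p = 0.00645). Within the groups r was -0.754 in Ecad males, -0.760 in ΔEcad males and -0.709 in ΔEcad females, but 0.334 in Ecad females.

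By Pearson's r, Cd274 had its highest correlation with the interferon-γ response score, r = 0.673 (permutation p = 2e-05, adjusted 6.2e-05), and rho was 0.594. It was 0.513 without Ecad male 4 and Ecad male 6, the farthest tumours. It differed by group: 0.939 in Ecad males, 0.794 in ΔEcad females, 0.678 in ΔEcad males and 0.211 in Ecad females. The T cell score was nearly as close by r and closer by rho. With it Cd274 had r = 0.663 (permutation p = 9e-05, adjusted 0.00018) and rho = 0.711. That r was 0.583 without the 2 farthest tumours and ran from 0.353 in Ecad females to 0.977 in Ecad males. With the macrophage score Cd274 had r = 0.426 (permutation p = 0.0175, adjusted 0.0226, rho 0.515), with -0.148 in Ecad females and 0.542 to 0.752 in the other groups and 0.480 without the 2 farthest tumours.

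**Figure D5:**
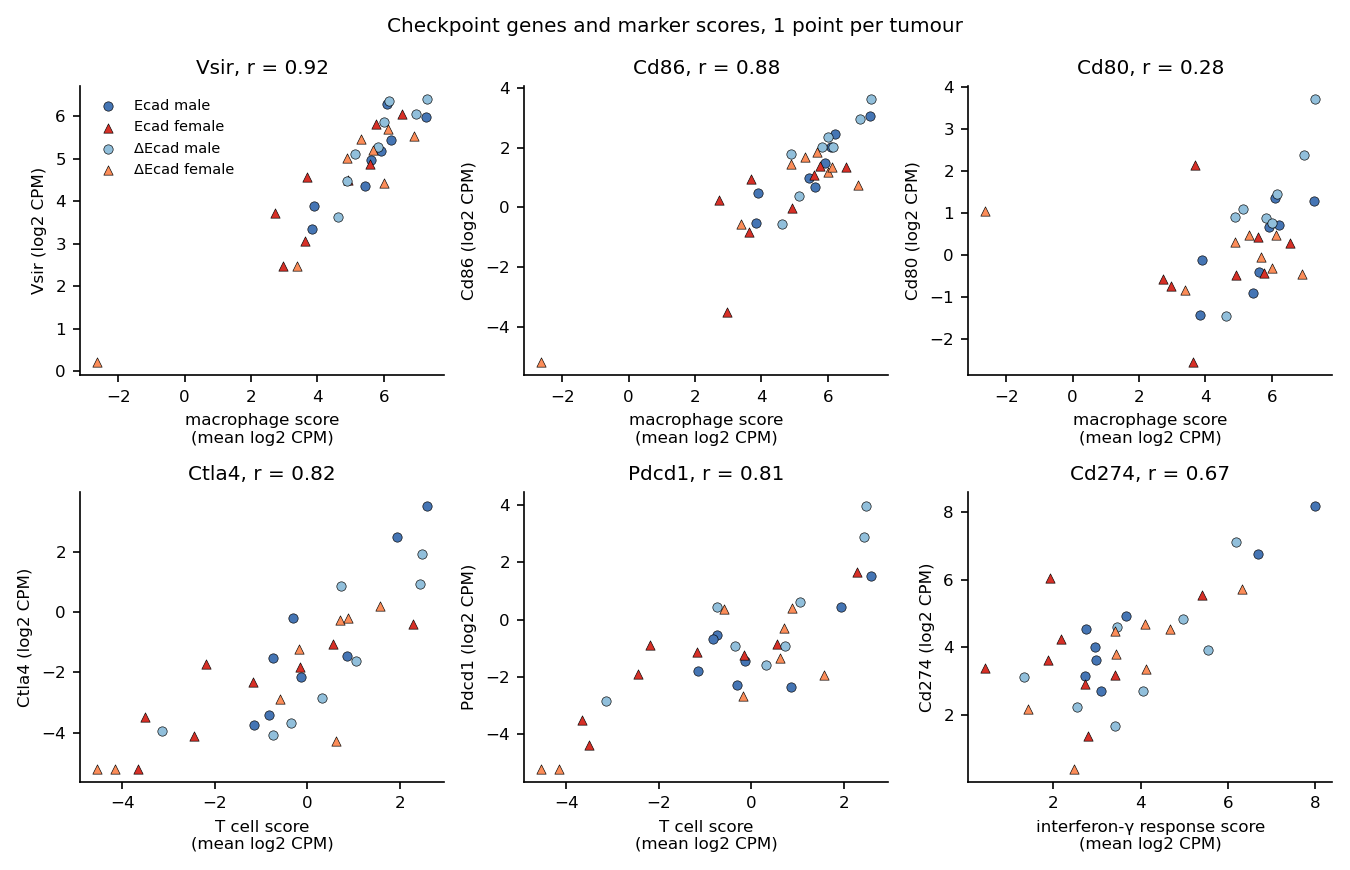
Log2 CPM of 6 checkpoint genes against the mean log2 CPM of a marker list, with 1 point per tumour. Vsir and Cd86 follow the macrophage score down to ΔEcad female 3 at the far left, where Cd80 stays high, and Cd274 follows the interferon-γ response score least closely among Ecad females.

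The genes whose log2 CPM was most like that of each member over the 32 tumours, among all 17717 tested, are given as a description. For Cd274 they were Zc3h12a (r = 0.809), Tnfaip3 (0.804) and Ccrl2 (0.797), of which Zc3h12a and Tnfaip3 encode feedback inhibitors of inflammatory signalling. For Pdcd1 they were Ms4a4b (0.848), Cd6 (0.835) and Cxcr6 (0.827), for Ctla4 Icos (0.879), Ptpn22 (0.848) and Cd8a (0.843), and for Tigit Sh2d2a (0.860), Cd8b1 (0.846) and Zap70 (0.840), among which Cd6, Cd8a, Cd8b1, Icos and Zap70 are T cell genes. Lag3 was nearest to Cd5 (0.796), Klra7 (0.796) and Trbc2 (0.781), the second a natural killer cell receptor gene. Pdcd1lg2 was nearest to Icos (0.866), Ly6i (0.826) and Ctla4 (0.819), all closer to it than Cd274 (0.606). It had 3 counts or fewer in 11 of the 32 tumours, which limits these values. For Vsir they were Cybb (0.944), Sash3 (0.943) and Cnr2 (0.942), for Cd86 Gpr65 (0.942), March1 (0.938) and Ms4a6c (0.928), and for Havcr2 Arhgap15 (0.843), Il18r1 (0.839) and Atp8b4 (0.836). Cybb encodes a subunit of the phagocyte oxidase, and March1 a ubiquitin ligase that removes CD86 from the cell surface. For Cd80 they were Lsp1 (0.797), Gsap (0.770) and Cass4 (0.768).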

How the data were processed

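RNA was extracted from 32 primary melanomas, and poly(A) libraries were sequenced as paired reads. The authors aligned reads with STAR to mm10 (GRCm38.p5) with GENCODE M13 and deposited raw counts per gene, and TPM values made from them by the authors, which are normalised for transcript length and library. FastQC 0.11.5 is named in the submitters' processing notes, and the strand setting of the counting is not given in the sources used here. Symbols came from GENCODE M21, and 0 sample columns lacked a sample.

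Counts of 17717 genes that passed filterByExpr were tested with edgeR 4.0.16 (R 4.3.3), by the quasi-likelihood test, two-sided, with TMM factors, 1 model of all 32 tumours and Benjamini-Hochberg adjustment; genes were called at an adjusted p under 0.05 where log2 values also differed by over 1 in either direction. The fit was tested on simulated data. DESeq2 1.42.0 and limma 3.58.1 were alternatives, with other scalings, filters, covariates, the replicate number as a block and each tumour left out. The limma fits used voom with quality weights per tumour, written as voom here, or log2(TPM + 1) or log2(TPM + 0.1). Correlations used log2 CPM (prior count 1) and 100000 two-sided permutations (NumPy 2.4.6), adjusted over 40 score relations and over 12 pairs. The paired permutation test of neighbouring levels used SciPy 1.17.1. The replicate numbers did not pair the tumours.

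The 10 genes, the 33 partners and the marker lists were chosen with earlier results of these data known. All 10 genes, the partners of the 12 pairs, any partner called by edgeR and the 3 genes most correlated with each member are named. The sex comparison over both genotypes, the genotype comparison over both sexes, the order of levels and the fits without 3 tumours were added after the data were seen. A search of the promoter windows for short motifs is not reported here.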

Additional observations from a re-analysis of the deposited data

Results flagged for a closer look

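In 8 values per group, Cd86, the gene of the CD28 and CTLA-4 ligand CD86, had a lowest value that lay far from the other 7 in both female groups. Ecad female 8 had -3.51 log2 CPM (2 counts), with a gap of 0.549 of its group's range to the next tumour, and ΔEcad female 3 had -5.19 log2 CPM (0 counts), with a gap of 0.658, both above Dixon's 95% critical value for 8 values. These were 2 of 40 groups of values examined, and chance gives about 1 in 20. The same 2 tumours had summed T cell markers of 0.87 and 1.60 TPM, and the part of these markers in the Cd86 values was not tested.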

How the results depend on the processing

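No checkpoint gene was called under any alternative except Ctla4 for females against males in Ecad, where DESeq2 called 1 member. The number of genes called varied more. For ΔEcad against Ecad in females 213 genes were called, against 1281 with DESeq2, 322 with RLE size factors, 333 with library size only, 555 with no filter, 87 with a CPM of at least 1 in 8 tumours, 569 without the 3 tumours that stand apart and 8 with a keratinocyte covariate. It was 1 with voom, with either TPM pseudocount, with the replicate block, with T cell and macrophage covariates and with only the tumours compared, and between 1 and 695 when each tumour was left out (highest without ΔEcad female 4). In males 0 became 21 with DESeq2 and 1 with the keratinocyte covariate. For females against males in Ecad 9 became 1023 with DESeq2 and 92 with voom, with 8 to 21 when each tumour was left out, and in ΔEcad 7 became 24 with DESeq2 and 0 with only the tumours compared. For the difference between the genotype effects 0 became 1225 with DESeq2, 201 with RLE, 506 with library size only, 284 with no filter, and 1 with log2(TPM + 0.1) or the keratinocyte covariate, with 0 to 848 when each tumour was left out (highest without ΔEcad male 3). For the sexes over both genotypes 13 became 28 with DESeq2, 8 with either TPM pseudocount and 7 with the replicate block, with 8 to 15 when each tumour was left out. For the genotypes over both sexes 2 became 66 with DESeq2, 0 with voom, 4 with the keratinocyte covariate and 1 with library size only, no filter, the CPM filter, the replicate block or without the 3 tumours, and 1 to 3 when each tumour was left out. Partners called over the 5 comparisons went from 0 to 5 with DESeq2, 2 without the 3 tumours, and 1 with library size only or no filter, with 0 to 3 when each tumour was left out. The cause of these changes was not tested.

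The replicate numbers do not pair the tumours: over 48 same-numbered pairs the median correlation of deviations was 0.042, and 1 of 32 tumours correlated best with its own number. With the replicate block 0 members were called. Library size scaling moved the median of all genes from 0.11 to -0.08 in the male genotype comparison and from -0.16 to 0.14 in the difference between the genotype effects. For females against males, members changed sign in 5 of 320 values in Ecad and 1 of 320 in ΔEcad with a tumour left out, and in 9 of 135 (8 members) and 5 of 136 (2 members) under the other alternatives. Over both genotypes these were 0 of 320 and 3 of 127. For ΔEcad against Ecad they were 18 of 320 and 15 of 135 in females and 6 of 320 and 1 of 136 in males. Of the 31 score relations that passed, 27 passed under every alternative, as did 5 of the 7 pairs. Depth limits Pdcd1lg2 and Ctla4 most, with 3 counts or fewer in 11 tumours each.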
